A study of Homo sapiens with 4 samples.

Results

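PU.1, encoded by SPI1, and 9 further transcription factors of the ETS family (ETS1, ETS2, FLI1, ERG, ELF1, ELF4, GABPA, ETV6 and ELK3) were followed in U937 cells that express AML1/ETO. The members were taken by gene symbol: every probe set annotated to one of the 10 genes was used, which gave 30 of 54613 probe sets, or 10 of 19775 genes. None of the 30 named a further gene, and SPI1 alone was represented by a single probe set.

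U937 is a human cell line with monocytic features, and AML1/ETO is the fusion protein of the leukemic translocation that joins the DNA-binding part of AML1 (RUNX1) to ETO (RUNX1T1). U937-AE cells were a single clone, U937 AML1/ETO-HA#9, carrying HA-tagged AML1/ETO behind the zinc-inducible mouse metallothionein promoter of the vector pSG-MtNEO, whereas U937-Mt cells were a bulk population with the empty vector. Both lines received 100 µM ZnSO4 for 8 h, so zinc was common to the groups. RNA of 3 extractions was combined for each line, and 2 copies of an Affymetrix HG-U133 Plus 2.0 array received the same labeled material, giving 4 arrays. Each line therefore contributed 1 biological pool. The spread between array copies covers hybridization error only, no p-value is given for the difference between the lines, and the induced protein and the choice of a clone cannot be told apart.

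ETS factors share a DNA-binding ETS domain that recognizes a GGAA core, with the flanking bases differing among members. PU.1 is required for the development of monocytes, macrophages and granulocytes and acts on many of their genes together with C/EBP factors and AML1. ETS1, ETS2, FLI1, ERG, ELF1, ELF4 and GABPA are mostly described as activators, while ETV6 and ELK3 are best known as repressors. AML1 recognizes the core TGTGGT or TGCGGT, and AML1/ETO keeps that DNA-binding part.

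Promoter windows from RefSeq (GRCh38.p14, 250 bases before to 50 after an annotated start) were at hand for 7 of the 10 genes, in 16 windows. SPI1, ETS1 and FLI1 had no entry. The windows were searched on both strands for the AML1 cores TGTGGT and TGCGGT, for the ETS core GGAAGT and for the PU.1 sequence GAGGAAGT, which contains GGAAGT. An AML1 core in either spelling was found in 3 of the 16 windows, which belonged to ELF4 and ETS2, and in a similar share, 19.6%, of all 35116 windows of the same length. GGAAGT was found in 5 windows, of ELF4, ELK3, ETS2 and GABPA (22.8% of all windows), and GAGGAAGT in 2, of ELK3 and ETS2 (2.59% of all windows). The 250 bases upstream of 2 of these starts are shown. ELF4 and ETS2 were picked by their values, being, with SPI1, the members whose brightest probe sets had the lowest signals in U937-AE relative to U937-Mt. For each gene the window with TGTGGT upstream of the start is shown. A link between AML1 cores and the signals was not tested. Capitals mark the AML1 and ETS cores.
ELF4, minus strand, chrX:130086934-130087183: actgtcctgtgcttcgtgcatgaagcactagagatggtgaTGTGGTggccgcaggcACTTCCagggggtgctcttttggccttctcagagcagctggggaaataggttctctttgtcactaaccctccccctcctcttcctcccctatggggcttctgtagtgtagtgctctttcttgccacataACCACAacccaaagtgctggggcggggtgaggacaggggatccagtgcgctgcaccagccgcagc
ETS2, plus strand, chr21:38804933-38805182: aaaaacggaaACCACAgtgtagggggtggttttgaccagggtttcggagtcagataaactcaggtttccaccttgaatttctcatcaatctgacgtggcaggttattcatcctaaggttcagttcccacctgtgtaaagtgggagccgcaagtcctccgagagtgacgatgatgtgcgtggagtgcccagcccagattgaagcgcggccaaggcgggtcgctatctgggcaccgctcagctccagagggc
In the ELF4 window TGTGGT lay 210 to 205 bases before the start on the gene's strand and 65 to 60 bases before it on the opposite strand, with GGAAGT on the opposite strand 194 to 189 bases before it. The other 2 ELF4 windows held no AML1 core. In the ETS2 window shown, TGTGGT lay on the opposite strand 240 to 235 bases before the start, and the other ETS2 window held TGCGGT 26 to 31 bases after its start. Such matches describe the letters of these windows, and binding was not measured on these arrays.

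The label of the induced cells was examined first. Probe set 216831_s_at of RUNX1T1, the gene whose sequence forms the ETO part, read 1361.5 and 1299.0 for U937-AE versus 8.6 and 7.6 for U937-Mt, which fits the labels. The other 6 RUNX1T1 probe sets were not called by the rule given below. Array copies of one pool correlated with r = 0.94 in U937-AE and r = 0.92 in U937-Mt (log2 signal, across probe sets, which are not independent replicates). Of 5 markers of monocytic lines, 3 (CD4, LYZ and CSF1R) were above the floor described next on all 4 arrays. ITGAX and FCGR1A were below it on all 4, as was CD14, which was not on that list. LYZ was called lower in U937-AE. CD4, carried by monocytic cells, was well above the floor in each line (3072.5 and 3008.3 for U937-AE, 3086.5 and 3419.0 for U937-Mt). Of the markers of other cell types, those above that floor on all 4 arrays were 1 of 4 of T cells (CD2), 2 of 3 of B cells (CD79A and CD79B), 2 of 3 of erythroid cells (HBB and KLF1), 1 of 4 of megakaryocytes (GP1BA), 1 of 5 of endothelium (TEK) and 1 of 5 of epithelium (KRT8). None of these markers was called by the rule given with that floor, and the defining genes CD3D, CD3E, VWF and EPCAM were below the floor on all arrays. CD79A gave 1051.4 and 830.6 for U937-AE and 1000.1 and 987.8 for U937-Mt. CD79B gave 489.2 and 381.9 for U937-AE and 320.8 and 245.0 for U937-Mt, with 3 of 4 comparisons past 1.5-fold, and after scaling to the hybridization spike-ins it was called higher, as was ITGA2B of the megakaryocytic markers.

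To compare the lines, signals below an array's median were set to that median, called the floor here (119.5 and 129.7 in U937-AE, 146.8 and 153.6 in U937-Mt), and a probe set was called when every one of the 4 pairings between U937-AE and U937-Mt arrays exceeded 1.5-fold in the same direction. The floors themselves differ, which fixes the log2 difference of a probe set below all of them at -0.27, and no fold is given for it. Of the 30 member probe sets, 3 were called lower in U937-AE, 1 of SPI1 and 2 of ELF4, and 0 were called higher. Among all 54613 probe sets 2.74% were called lower and 1.29% higher. Of the member probe sets 19 were above the floor on all 4 arrays, 5 were below it on all 4, and 6 were mixed. The median log2 difference of the 30 was -0.26. Over all probe sets and over all genes the median was -0.27, which is the fixed difference of the floors. Without a floor the medians were -0.14 for the 30, -0.16 over all probe sets and -0.15 over all genes. By the brightest probe set of each gene, 2 of 10 members were called lower and 8 were not called, against 4% lower and 1.7% higher among all genes. The deposited signals of the lines did not overlap for 17 member probe sets, 10 with lower and 7 with higher signals in U937-AE. Over all probe sets these shares were 32.3% and 17.6%, so such separation was common among all probe sets.

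**Figure D1:**
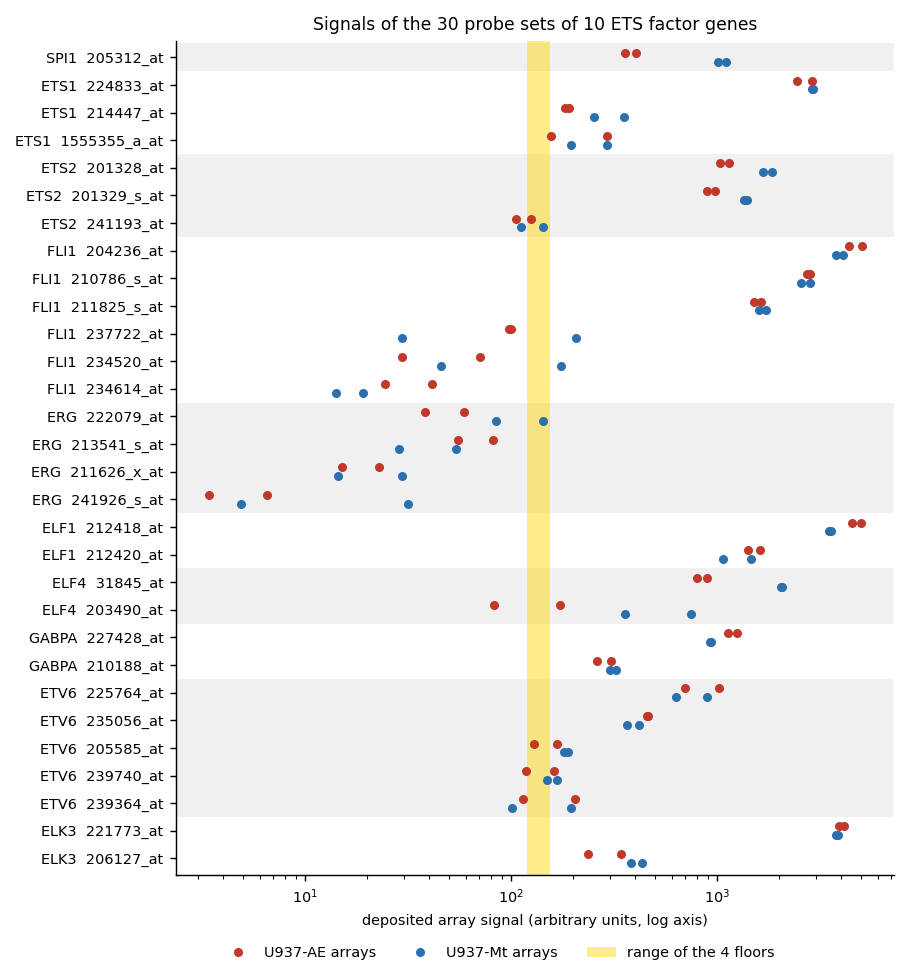
Deposited signal (log axis) of each of the 30 probe sets, ordered by gene and brightness, with U937-AE arrays in red above U937-Mt arrays in blue and the range of the 4 floors (119.5 to 153.6) as a yellow band. The red points of SPI1 and of both ELF4 probe sets lie left of the blue points, and all points of ERG lie left of or within the band.

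On these arrays, which do not measure protein, the SPI1 transcript was lower in U937-AE. Its probe set 205312_at (SPI1, chromosome 11) gave signals of 405.3 and 358.5 for U937-AE and 1007.4 and 1103.1 for U937-Mt. Both U937-AE values were well below both U937-Mt values, with every array above the floor. The signal was 2.77-fold lower in U937-AE, and the 4 comparisons ran from 2.49 to 3.08-fold, whereas array copies differed by 1.13-fold in U937-AE and 1.10-fold in U937-Mt. The log2 difference of -1.47 became -1.12 when arrays were scaled to the hybridization spike-ins, and SPI1 was still called lower. On RNA of bulk cells, fewer cells with SPI1 transcripts and fewer transcripts per cell cannot be told apart, here and below. Over the 4 arrays, among 10678 genes above the floor on every array, the genes whose centred log2 signals lay nearest to those of SPI1 were SEZ6 (Euclidean distance 0.046), SNX20 (0.056), EMILIN2 (0.077), NFIL3 (0.080) and TENT5A (0.084). With 2 pools of 2 array copies, nearness says little more than that the difference between the lines was of similar size.

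ELF4, an ETS factor known for roles in quiescence and innate immune genes, was the other member called, by both of its probe sets. Probe set 31845_at (chromosome X) gave 796.4 and 896.1 for U937-AE, versus 2039.0 and 2070.4 for U937-Mt. The arrays of the lines did not overlap, and the signal was 2.43-fold lower in U937-AE, with the 4 comparisons between 2.28 and 2.60-fold. Probe set 203490_at gave 172.9 and 82.9 for U937-AE, versus 741.9 and 357.1 for U937-Mt. Here the copies of one pool differed by 2.08-fold in U937-Mt, and 1 of the 2 U937-AE arrays was below the floor. Its signal was 3.44-fold lower in U937-AE with that array set to the floor (2.07 to 5.72-fold) and 4.30-fold lower without a floor. ELF1, the close relative of ELF4 with roles in lymphoid and myeloid genes, was not called. Its probe set 212418_at gave 4995.6 and 4516.0 for U937-AE, versus 3497.7 and 3548.4 for U937-Mt, a log2 difference of 0.43, and 212420_at had a log2 difference of 0.27 with overlapping arrays. After scaling to the spike-ins 212418_at reached 0.77 and was called higher.

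**Figure D2:**
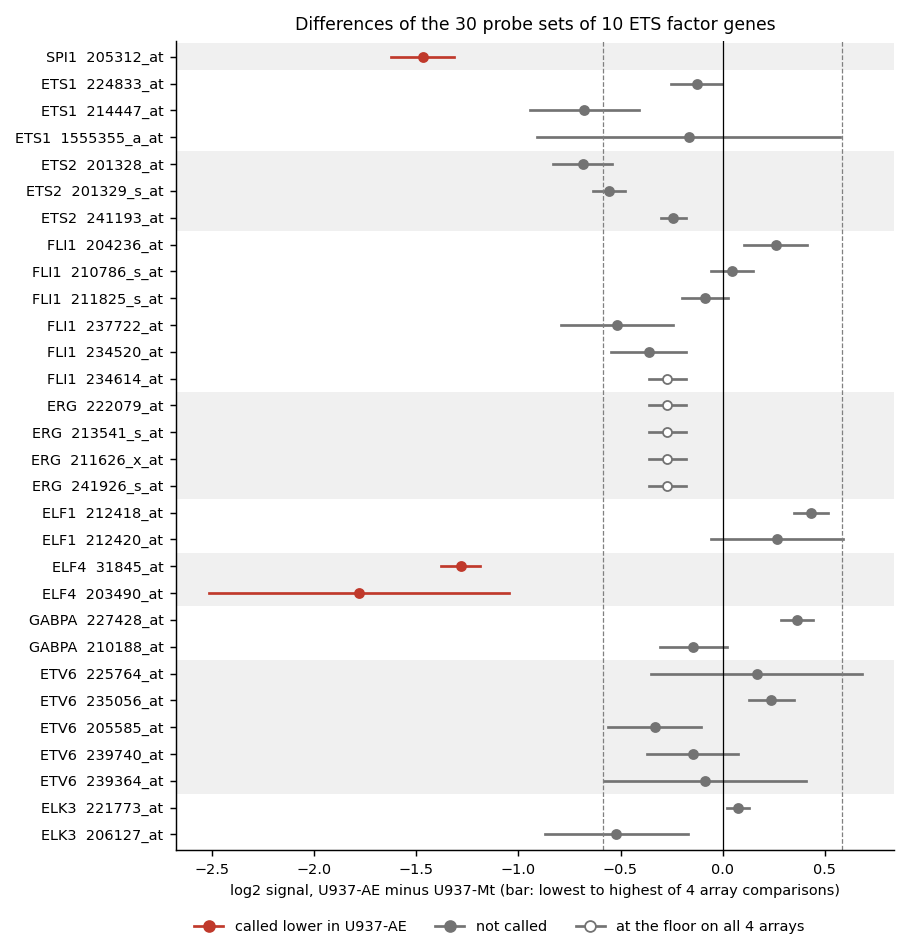
Mean log2 difference, U937-AE minus U937-Mt, of the 30 probe sets (points), with bars from the lowest to the highest of the 4 array comparisons and dashed lines at 1.5-fold. SPI1 at -1.47 and ELF4 at -1.28 and -1.78 have bars wholly beyond the lower line. The bars of the 2 brighter ETS2 probe sets cross it, as do those of ETS1 214447_at and 1555355_a_at, FLI1 237722_at and ELK3 206127_at. Open points at -0.27 are at the floor on all arrays.

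ETS1 and ETS2, which act downstream of RAS and ERK signaling, were not called. ETS2 probe set 201328_at (chromosome 21) gave 1146.3 and 1034.0 for U937-AE, versus 1666.5 and 1839.5 for U937-Mt. The arrays did not overlap and the log2 difference was -0.69, or 1.61-fold lower in U937-AE, but the 4 comparisons ran from 1.45 to 1.78-fold and 3 of 4 passed, so it was not called. The second ETS2 probe set, 201329_s_at, gave 893.9 and 971.4 for U937-AE, versus 1351.9 and 1388.0 for U937-Mt, with 2 of 4 comparisons past 1.5-fold. The third, 241193_at, was at or near the floor. After scaling to the spike-ins the log2 difference of 201328_at was -0.34. ETS1, located like SPI1 on chromosome 11, gave 2872.9 and 2439.1 for U937-AE and 2903.2 and 2874.9 for U937-Mt by its brightest probe set 224833_at, a log2 difference of -0.13. Its dimmer probe set 214447_at gave 182.3 and 190.3 for U937-AE, versus 351.1 and 253.0 for U937-Mt, with 2 of 4 comparisons past 1.5-fold. Probe set 1555355_a_at had overlapping arrays and a difference of -0.17. The probe sets of ETS1 thus did not give one answer, and all 3 were not called.

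FLI1 and ERG are closely related activators of hematopoietic stem cell, megakaryocytic and endothelial genes. The lines gave strong signals for FLI1 and none above the floor for ERG. FLI1 probe set 204236_at gave 5030.9 and 4377.4 for U937-AE, versus 3774.6 and 4074.0 for U937-Mt. These arrays did not overlap, but the log2 difference was 0.26 and no comparison reached 1.5-fold. Probe sets 210786_s_at and 211825_s_at had differences of 0.05 and -0.09 with overlapping arrays. The other 3 FLI1 probe sets, 237722_at, 234520_at and 234614_at, were below the floor on at least 3 of 4 arrays. All 4 ERG probe sets (222079_at, 213541_s_at, 211626_x_at and 241926_s_at) were below the floor on all 4 arrays, with signals from 3.4 to 81.4 in U937-AE and from 4.9 to 142.4 in U937-Mt, so a difference in ERG was not measurable here.

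GABPA is the DNA-binding subunit of GABP, which acts on genes of mitochondria and ribosomes. Its brighter probe set 227428_at gave 1251.2 and 1131.3 for U937-AE, versus 921.8 and 927.7 for U937-Mt. The arrays did not overlap, and the log2 difference of 0.36 was not called, but it was 0.71 and called higher after scaling to the spike-ins. The dimmer probe set 210188_at ran the other way, at -0.14, with overlapping arrays. GABPB1 and GABPB2, the partner subunits, had log2 differences of -0.03 and 0.00. Among the 12 measured GABP partners and target genes 1 was called lower and 0 higher (4% and 1.7% among all genes). Their median was -0.04 with or without a floor, beside -0.15 over all genes without a floor. The called gene was ATP5F1A, a subunit of the mitochondrial ATP synthase, with 11870.0 and 12944.0 for U937-AE and 22844.6 and 22838.2 for U937-Mt (1.84-fold lower in U937-AE). It was not called after scaling to the same median or to the spike-ins, which called 1 gene of the list higher each (NRF1 after the first and TFB2M after the second). Over all 19775 genes these scalings called 911 and 1369 higher. Dimmer probe sets differed from the brightest for NRF1, where 211279_at was called lower, and for COX5B, where 213736_at was called higher. Those 2 probe sets were named after their values were seen.

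Neither repressor was called. ETV6, which is needed in hematopoietic stem cells, gave 699.8 and 1016.8 for U937-AE and 891.4 and 634.1 for U937-Mt by probe set 225764_at, where the copies of one pool differed by 1.45-fold in U937-AE and by 1.41-fold in U937-Mt and the lines overlapped. Its other 4 probe sets had log2 differences of 0.24 (235056_at), -0.33 (205585_at), -0.15 (239740_at) and -0.09 (239364_at). ELK3, a ternary complex factor that works with SRF, gave 4139.0 and 3921.1 for U937-AE and 3864.8 and 3786.0 for U937-Mt by 221773_at, a log2 difference of 0.07. Its dimmer probe set 206127_at had 236.0 and 339.3 for U937-AE, versus 381.7 and 431.9 for U937-Mt, with 2 of 4 comparisons past 1.5-fold.

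**Figure D3:**
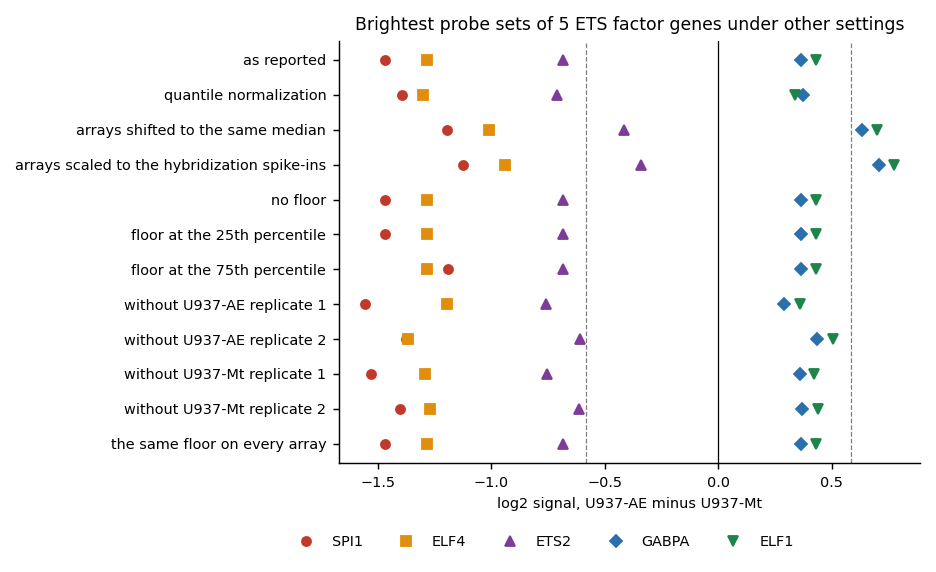
Log2 difference, U937-AE minus U937-Mt, of the brightest probe set of SPI1, ELF4, ETS2, GABPA and ELF1 (symbols) as reported and under 11 other normalizations, floors and sets of arrays, with dashed lines at 1.5-fold. SPI1 stays between -1.56 and -1.12 and ELF4 between -1.37 and -0.94, both left of the lower line, while scaling to the spike-ins moves ETS2 to -0.34 and ELF1 and GABPA to 0.77 and 0.71.

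The remaining ETS genes on the array were described by the brightest probe set of each. Of 17 genes 1 was called lower and 0 higher, near the 4% and 1.7% of all genes, and 3 were below the floor on all arrays. The median of the 17 was -0.27, which, as over all genes, is the fixed difference of the floors. Without a floor it was -0.45, beside -0.15 over all genes. SPIB, the nearest relative of PU.1 and best known from B cells, gave 115.4 and 33.7 for U937-AE, both below the floor, versus 274.2 and 202.3 for U937-Mt, at least 1.89-fold lower in U937-AE. It was not called under quantile normalization, after scaling to the same median or after scaling to the spike-ins, and its second probe set was below the floor on all arrays. For ELK4, a further ternary complex factor, the brightest probe set was not called (log2 difference 0.33), whereas 238761_at was called higher, with 880.5 and 817.7 for U937-AE and 362.5 and 495.7 for U937-Mt. This probe set was singled out after its values were seen.

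Genes known as PU.1 targets in myeloid cells were often lower in U937-AE. Of 31 with a probe set 14 were called lower and 0 higher, against 4% and 1.7% of all genes. Their median log2 difference was -0.78, or -0.86 without a floor, beside -0.15 over all genes without a floor. This list, like the members and the other lists, was chosen with earlier results of these data known, so the contrast is no independent test. The count was 13 after quantile normalization, 11 after scaling to the same median and 10 after scaling to the spike-ins, and none was called higher in any of these. Over all 19775 genes 611, 387 and 290 were called lower in these settings, beside 791 as reported. The largest differences were those of AZU1 (azurocidin, 9.88-fold lower in U937-AE), MPO (myeloperoxidase, 8.92-fold), CTSG (cathepsin G, 8.19-fold) and ELANE (neutrophil elastase, at least 6.12-fold, with both U937-AE arrays below the floor), which all encode azurophil granule proteins. CSF3R, the receptor of G-CSF, gave 389.6 and 398.4 for U937-AE, versus 2143.7 and 1892.5 for U937-Mt, and was 5.11-fold lower in U937-AE. IRF8, a partner of PU.1 in monocytic cells, was 4.18-fold lower in U937-AE. FES, TYROBP, ITGB2, ITGAM, LYZ, NCF1, TLR4 and IL1B were also called lower, and for 4 of the 14 genes (ITGAM, ITGB2, LYZ and TLR4) at least 1 further probe set was not called.

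Not all genes of the list were lower. BTK, SYK and CD53, singled out after their values were seen, had log2 differences of -0.07, -0.10 and 0.20 with all arrays above the floor, and none of the 4 comparisons of any of them reached 1.5-fold. CSF1R, the receptor of M-CSF and a textbook PU.1 target, was likewise chosen after its values were seen. It gave 181.5 and 150.2 for U937-AE, versus 233.1 and 345.9 for U937-Mt. The arrays did not overlap, the signal was 1.72-fold lower in U937-AE and 3 of 4 comparisons passed 1.5-fold, so it narrowly missed the call. A further 5 genes of the list, among them CD14 and PRTN3, were below the floor on all arrays. Several of these genes are also targets of C/EBPα or AML1, and the part of each factor was not tested.

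**Figure D4:**
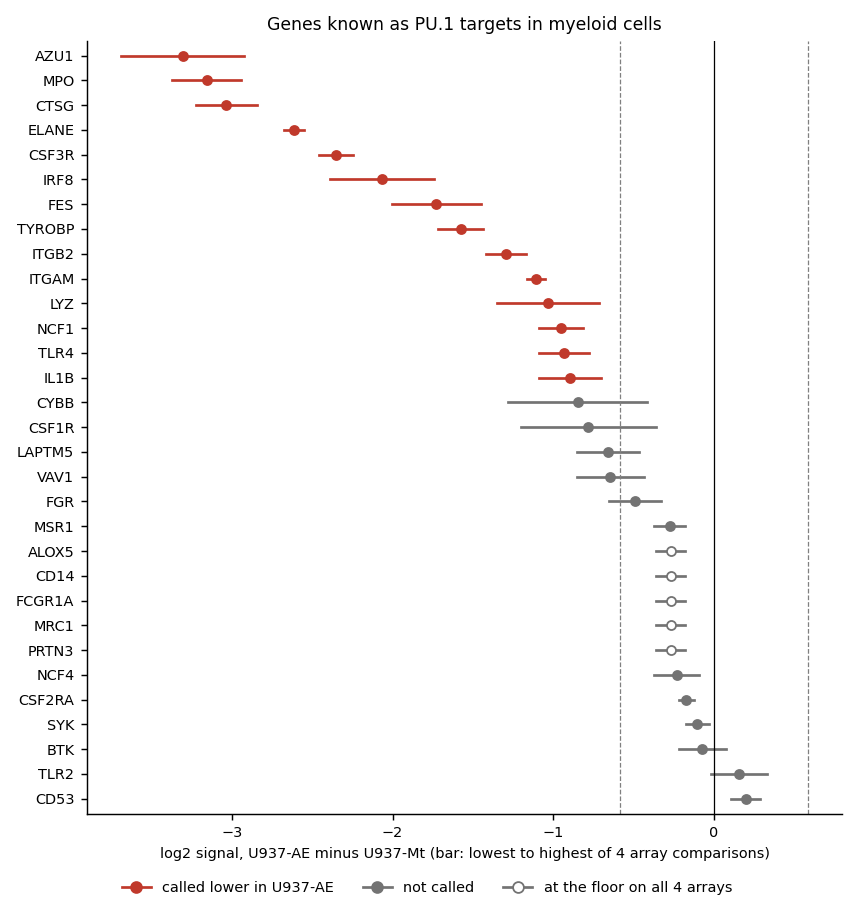
Log2 difference, U937-AE minus U937-Mt, of 31 genes known as PU.1 targets by the brightest probe set of each (points, with bars from the lowest to the highest of 4 array comparisons and dashed lines at 1.5-fold), ordered by size. The 14 called genes run from AZU1 at -3.30 to IL1B at -0.89, and CD53 at 0.20 is the highest.

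Among 16 partners and upstream regulators of PU.1, 4 were called lower and 1 higher (4% and 1.7% among all genes). Their median was -0.40 with or without a floor, beside -0.15 over all genes without a floor. CEBPA, whose product acts with PU.1 on granulocytic genes, was 6.99-fold lower in U937-AE, and IRF8 is counted here as well. JUN, a coactivator of PU.1, gave 395.8 and 413.5 for U937-AE, versus 755.2 and 939.2 for U937-Mt, a 2.08-fold lower signal in U937-AE, and 2 of its 4 probe sets were called. LMO2, a bridging protein of hematopoietic transcription complexes, gave 1526.1 and 1433.5 for U937-AE, versus 2608.1 and 3432.6 for U937-Mt, and was 2.02-fold lower in U937-AE by this probe set and lower by its second one too. EGR1, a zinc finger factor of the macrophage lineage, was 2.28-fold higher in U937-AE by its brightest probe set, the other 2 not being called. After scaling to the spike-ins CEBPA and IRF8 were still called lower and EGR1 higher, whereas JUN and LMO2 were not called and KLF4, a factor of monocyte differentiation, was called higher. The brightest probe set of IKZF1 was not called (log2 difference -0.58), but after quantile normalization it was called lower. Of the 9 IKZF1 probe sets 1 dimmer one, 227344_at, was called lower as reported. IKZF1 was named after its values were seen.

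Targets of SRF and of its partners, the ternary complex factors ELK3, ELK1 and ELK4, were also counted. Of 14 genes 4 were called higher and 0 lower, against 1.7% and 4% of all genes, with a list median of -0.10. Beside EGR1 these were SPRY2, MCL1 and SPRY4, which encode an inhibitor of receptor tyrosine kinase signaling, an antiapoptotic BCL2 relative and a second Sprouty inhibitor. SPRY2 gave 1488.2 and 1757.8 for U937-AE, versus 797.2 and 724.7 for U937-Mt, and was 2.13-fold higher in U937-AE. MCL1 gave 9360.8 and 7499.8 for U937-AE, versus 4674.6 and 4925.6 for U937-Mt (1.75-fold higher in U937-AE), with 2 of its 6 probe sets called. SPRY4 gave 281.6 and 292.7 for U937-AE, versus 120.0 and 160.6 for U937-Mt, and was 1.87-fold higher in U937-AE with 1 U937-Mt array set to the floor. The count was 3 after quantile normalization and 4 after scaling to the same median or to the spike-ins. Over all 19775 genes 374, 911 and 1369 were called higher in these settings, beside 336 as reported. FOS and FOSB, the classical immediate early genes of this list, were at or near the floor, and DUSP6 had a log2 difference of 0.01. Of 9 genes of ERK signaling and ETS coregulators 1 was called lower and 0 higher (4% and 1.7% among all genes), with a median of -0.01. It was TLE1, a Groucho corepressor with 156.7 and 177.6 for U937-AE and 279.2 and 322.6 for U937-Mt. TLE1 was not called under any of the 3 other scalings, whereas MAP2K1, an ERK kinase activator, was called higher after scaling to the same median and to the spike-ins. A dimmer probe set of the coactivator CREBBP, 228177_at, was called higher, and it was named after its values were seen.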

How the data were processed

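RNA of zinc-treated U937-AE and U937-Mt cells was measured on 4 arrays, 2 copies per pool of 3 extractions. The deposited values are linear signal intensities that the authors made with Affymetrix GCOS software (default parameters, with each array scaled, version not given in the sources used here), so they are neither counts nor log values. The number of arrays limits the precision.

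From these intensities 62 control probe sets were left out, signals were set to at least the array's 50th percentile, and log2 values were taken. A call needed all 4 comparisons between the lines above 1.5-fold in one direction. Genes were named by the GEO platform annotation with symbols updated through RefSeq (41091 probe sets with 1 symbol, 1801 with several, 11721 with none), and each gene of a list was read by its brightest probe set naming that gene alone. The rule for named genes took all member probe sets, up to 6 called genes per list by size, and the 5 genes nearest to SPI1. The remaining called PU.1 targets, the marker genes and the genes so described in the text were named outside it, after their values were seen. The members and lists were chosen with earlier results of these data known. The rule was tested on simulated data. Alternatives were other normalizations, floors and thresholds, limma 3.58.1 (R 4.3.3), the methods' t-test, and leaving out each array. Python 3.11.15 was used.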

Additional observations from a re-analysis of the deposited data

How the results depend on the processing

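As reported, 3 member probe sets were called lower and 0 higher in U937-AE, beside 2.74% lower and 1.29% higher among all probe sets. The count of lower probe sets was 5 when the difference of the pool means alone had to exceed 1.5-fold (6.81% of all probe sets). It was 5 with limma without the array number as a block (4.57%) and 5 with the array number as a replicate block (6.76%). The additions in each were ETS2 201328_at and ETS1 214447_at. These limma tests use the spread between array copies only. The methods' t-test with more than 2-fold called 2 lower (1.22% of all probe sets). After Benjamini-Hochberg adjustment it called 0, and 0 of all 54613 probe sets. Leaving out 1 array gave 4 to 5 lower and 0 higher (4.13% to 6.19% lower and 1.94% to 2.41% higher among all probe sets). Fewer comparisons then had to pass, so these counts could only stay or rise. The additions were ETS2 201328_at (-0.76 without U937-AE replicate 1 or without U937-Mt replicate 1), ETS2 201329_s_at and ELK3 206127_at (-0.62 and -0.78 without U937-AE replicate 2), and ETS1 214447_at and FLI1 237722_at (-0.91 and -0.73 without U937-Mt replicate 2). Scaling to the hybridization spike-ins, which were 1.27-fold brighter in U937-Mt, added 0.34 to each log2 difference and gave 2 probe sets called higher, of ELF1 and GABPA. Of all probe sets 5.22% were called higher and 0.93% lower after that scaling. Which scaling is nearer to the cells was not tested. The brightest SPI1 and ELF4 probe sets were called lower in 17 of 18 alternatives, the exception being the adjusted t-test. Several alternatives could not undo a call made in all 4 comparisons with every array above the floor. Among these were the pool means, leaving out an array and a lower or no floor, so 17 of 18 overstates the support. ELF4 203490_at was also not called with the floor at the 75th percentile or by the unadjusted t-test. A floor common to all arrays, chosen after seeing the data, left the counts at 3 and 0 (2.63% and 1.35% of all probe sets). On floored signals, the differences between copies correlated with r = 0.05 between the lines. Probe sets at the floor on all arrays enter with a fixed difference, so this value cannot settle whether the array numbers pair the pools. Signals below the floor give no order.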
